A study of Mus musculus with 8 samples.

Results

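Nuclei of mouse islets that the study annotated as neurons were described here from the columns of the pooled single nucleus RNA-seq table whose names end in Neurons. These were 6 of 54 columns, 1 for each condition, and the other 48 held beta, alpha, delta, PP, endothelial, macrophage, muscle and ductal nuclei. Islets came from wild type (WT) mice or from mice with a whole-body knock-in of Med14 S983A, in which a serine of the Mediator subunit MED14 is replaced by alanine. Those of each genotype were left untreated (CON), given forskolin (FSK), an activator of adenylyl cyclase, or given the GLP-1 receptor agonist Exendin-4 (Ex-4, 10 nM for 16 hours). The dose and duration of FSK were not given in the labels. Each of the 8 sublibraries held nuclei of all 6 conditions. The labels do not give the islet preparation or barcode well of a condition, so that these cannot be told apart from the condition. The table holds 1 value per condition and cell type, pooled over nuclei. No difference below therefore has a replicate check, no p-value is given, and the 95% intervals cover counting error only.

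Islets are innervated by sympathetic, parasympathetic and sensory axons whose cell bodies lie for the most part outside the islet, in ganglia. Nuclei of neurons are therefore not a usual component of isolated islets, although small ganglia can lie in the pancreas. Schwann cells, the glia of peripheral nerves, ensheath the islet and its axons. The non-myelinating kind carries adhesion molecules such as L1 family proteins, builds a basal lamina and depends on neuregulin signalling through ERBB3. The transcription factor SOX10 marks Schwann cells and their neural crest precursors, while CADM2 is a synaptic adhesion molecule used by both neurons and glia.

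The Neurons columns were shallow. Recovered counts were 8995 in WT CON, 4044 in WT FSK, 51758 in WT Ex-4, 35828 in Med14 S983A CON, 20276 in Med14 S983A FSK and 58294 in Med14 S983A Ex-4. They summed to 179195, which was 0.759% of all counts in the table. A value was expressed as counts per 10000 counts of its column (CP10K), so that a single count was worth 2.47 CP10K in WT FSK and 0.172 CP10K in Med14 S983A Ex-4. Between 2002 genes (WT FSK) and 8926 genes (Med14 S983A Ex-4) of 17362 had a count. Their share of a condition's counts ran from 0.101% (0.0978 to 0.104) in WT FSK to 1.6% (1.58 to 1.61) in Med14 S983A Ex-4. In both genotypes it was lowest with FSK and highest with Ex-4, and fewer nuclei and less RNA per nucleus cannot be told apart in such a sum. Both Ex-4 columns held 61.4% of the Neurons counts and both FSK columns 13.6%, and sums over the 6 columns are weighted accordingly. The table also lists many genes at 0 in every cell type of a condition, from 387 genes in Med14 S983A FSK to 5918 in Med14 S983A Ex-4. Such a 0 is no measured difference or limit, and counts of calls that include such genes are given below also without them. Med14 itself had 0, 2 and 1 counts in the WT columns (CON, FSK, Ex-4) and 1, 7 and 4 in the mutant columns, and a point mutation is not visible in counts.

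The label was compared first with its markers. Sox10 and 9 more of 17 Schwann lineage transcription factors were not analysed here. Cadm2 had 34 counts, 1.9 CP10K (1.31 to 2.65), against 0.686 CP10K (0.469 to 0.969) in PP, the next highest type. It was highest in the Neurons columns with intervals apart, and its ratio of 2.76 was under the 4-fold set below. Its counts were 6 in WT CON, 9 in WT Ex-4, 12 in Med14 S983A CON and 7 in Med14 S983A Ex-4. Both FSK columns had 0, and 3 counts would be 7.42 CP10K in WT and 1.48 CP10K in the mutant. In the mutant the counting interval of the 0 reached 1.82 CP10K, and that of the CON column (3.35 CP10K) began at 1.73 CP10K. In WT the interval of the 0 reached 9.12 CP10K, above the 6.67 CP10K of the CON column. Intervals thus overlapped in both genotypes, so that the rule of intervals apart was not met. Such an overlap does not show that the levels were equal.

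The pan-neuronal genes that could be tested did not set these columns apart. A gene was tested where the 6 Neurons columns held 20 counts or more, and it was called where its level was at least 4-fold over the highest of the 8 other types with intervals apart. Of 1825 genes tested, 65 were called (3.56%). None of the 7 pan-neuronal genes with enough counts was among them, and the median ratio of these 7 to the highest other type was 0.328, against 0.547 over all genes tested. Snap25, a SNARE protein of transmitter release, had 26 counts (1.45 CP10K) against 5.96 CP10K in PP. Rbfox3, the NeuN antigen of mature neurons, had 22 counts (1.23 CP10K) against 4.54 CP10K in delta. Map2, a dendritic microtubule protein, was at 5.25 CP10K against 8.31 CP10K in beta. The neuronal tubulin Tubb3 had no count, and the RNA-binding protein Elavl3 was listed at 0 in every cell type of 5 conditions. Summed over 23 genes, the pan-neuronal list reached 19.0 CP10K (17.1 to 21.2), rank 5 of the 9 cell types and below delta (42.2 CP10K), PP, beta and alpha. Endocrine cells share much of the exocytosis machinery of neurons, and every one of these 4 types lay above the Neurons columns. Against such types the 4-fold rule can hardly call these genes, so that the lack of calls says little on whether neuron nuclei are present. Cell surface genes of synapses and axons were among the 65 called genes, as given below. Of autonomic and sensory neuron genes, 10 of 29 had a row and 1 had 20 counts. This was Ddc, the decarboxylase of catecholamine and serotonin synthesis, at 2.79 CP10K against 5.89 CP10K in beta.

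Genes of peripheral glia were called in 3 lists. Of the non-myelinating Schwann and glial genes, 6 of 15 with a row had enough counts and 4 were called, namely Grik3, Adamtsl1, Matn2 and Col28a1. Their list summed to 20.2 CP10K (18.2 to 22.4), 3.01-fold over muscle at 6.7 CP10K, and its median ratio over the tested genes was 11.1. Of the Schwann lineage transcription factors, Zfp536 was called among 4 with enough counts. Of Schwann signalling receptors and ligands, Lgi4 and Gfra1 were called among 6. As sums, both lists were highest in another type, at 44.7 CP10K in macrophage nuclei for the transcription factors, where Zeb2 alone gave 42.2 CP10K, and at 43.7 CP10K in delta nuclei for the signalling genes. The axon and glia adhesion list was highest in the Neurons columns, 74.5 CP10K against 56.1 CP10K in delta, with Csmd1 and Lsamp called among 14. Without Csmd1 it stood at 52.5 CP10K (49.2 to 56) against 56 CP10K in delta, so that its rank rested on this gene. The median ratios were 0.647 for the transcription factors, 1.41 for the signalling genes and 0.693 for the adhesion genes, beside 0.547 over all genes tested. All lists were chosen with earlier results of these data known, so that these ratios are a description and no independent check of the label.

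Myelin genes gave few counts. Mbp, a protein of the myelin sheath, was at 1.17 CP10K against 4.08 CP10K in ductal nuclei. None of the 3 myelin genes with enough counts was called. Erbb3, the neuregulin receptor of Schwann cells, had 8 counts. The sum of the 11 basal lamina genes was 17.2 CP10K, far under the 85.1 CP10K of endothelial nuclei, and 0 of 7 were called. Among markers of other islet cells, the endothelial list stood at 2.9 CP10K against 151 CP10K in its own type, the macrophage list at 0.335 against 12.0 CP10K, the muscle, pericyte and fibroblast list at 1.51 against 21.6 CP10K, and the ductal and acinar list at 2.85 against 39.7 CP10K. Central glia, melanocyte and cell cycle lists had no gene with 20 counts.

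**Figure D1:**
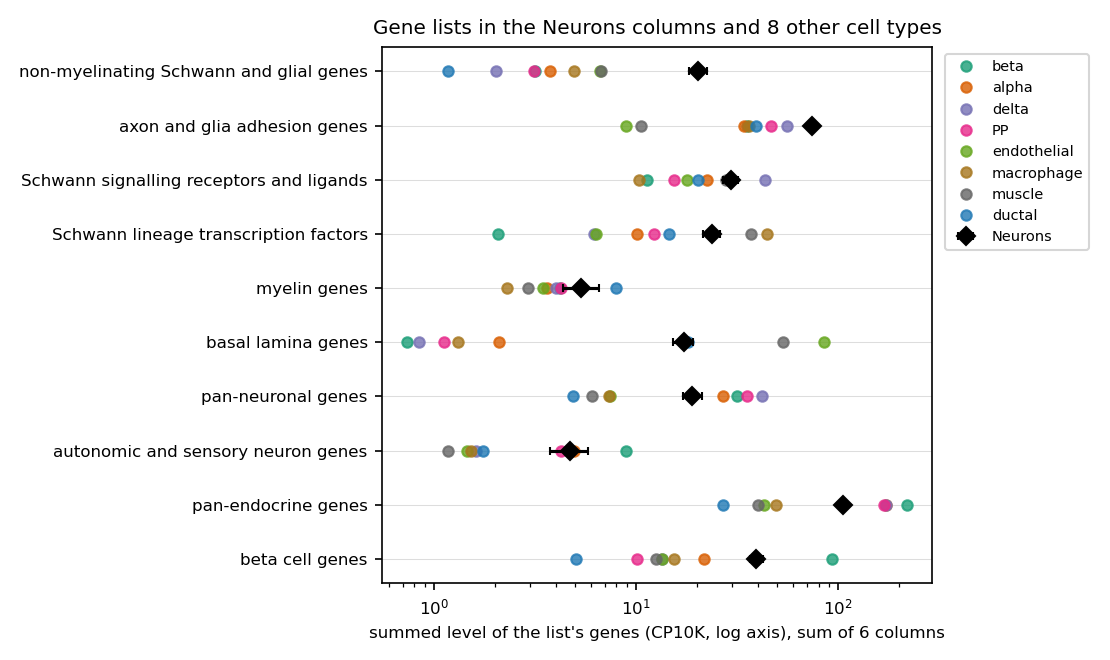
Summed level of 10 gene lists (CP10K, log axis, sum of 6 columns) in the Neurons columns (black diamonds with 95% counting intervals) and in the 8 other cell types (coloured points). The Neurons columns lie highest for non-myelinating Schwann and glial genes (20.2 CP10K) and, through Csmd1, for adhesion genes (74.5 CP10K, or 52.5 CP10K without this gene against 56 CP10K in delta), and below the 4 endocrine types for pan-neuronal genes (19.0 CP10K).

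The 65 called genes held 2.27% of the Neurons counts (2.2 to 2.34) and between 0.053% and 0.0996% of the counts of each other type. The choice of these genes fixes the direction of that gap, so the shares are a description of size. Within the Neurons columns the share ran from 1.18% in WT Ex-4 and 1.69% in Med14 S983A Ex-4 through 2.19% in Med14 S983A CON and 4.3% in WT CON to 5.14% in Med14 S983A FSK and 6.36% in WT FSK. It was lowest with Ex-4 and highest with FSK in both genotypes. Of the 65 genes, 19 had a count in all 6 columns, 2 had counts in a single column, and 15 were listed at 0 in every cell type of a condition or more. Without the Med14 S983A Ex-4 condition, 41 genes were called. The members just past the fold were Myo16 (ratio 4.02), Csmd3 (4.06) and Nkain3 (4.37), and those just short of it were Fbln2 (3.89), Gm32828 (3.61) and Astn2 (3.33).

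The leading protein-coding gene with counts in every column was Zfp536 (7:37017449-37473432, minus strand, GRCm39), a zinc finger repressor of neural and glial lineages. It had 5, 13 and 12 counts in WT CON, FSK and Ex-4 and 33, 60 and 27 in the mutant, which is 5.56, 32.1, 2.32, 9.21, 29.6 and 4.63 CP10K. All 6 of these values lay above the 0.121 CP10K of delta, the highest other type, and the summed level of 8.37 CP10K (7.08 to 9.82) gave a ratio of 69.1. Sox2ot (3:34158419-34789489, plus strand), the long non-coding RNA whose locus spans the neural and glial transcription factor gene Sox2, had 3, 31, 5, 52, 109 and 40 counts in the same order. Its levels were 3.34, 76.7, 0.966, 14.5, 53.8 and 6.86 CP10K, and the sum of 13.4 CP10K was 61.3-fold over macrophage nuclei. Both genes were highest in the FSK columns of both genotypes and lowest in WT Ex-4.

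Grik3 (4:125384202-125607966, plus strand), a kainate receptor subunit, had the highest ratio of all, 94.3 over muscle, from 55 counts. Of these, 38 lay in Med14 S983A FSK (18.7 CP10K), 11 in WT FSK (27.2 CP10K) and 3 in each CON column, and the gene was listed at 0 in every cell type of both Ex-4 conditions. Aff3 (1:38214515-38704036, minus strand), a nuclear protein of the AF4 family, had 3, 23, 6, 13, 49 and 5 counts and stood at 56.9 CP10K in WT FSK and 24.2 CP10K in mutant FSK, against 0.858 to 3.63 CP10K in the other 4 columns. Both thus had their highest levels with FSK. The adhesion gene Chl1 (6:103487353-103727508, plus strand), a relative of L1, had 6, 3, 17, 22, 33 and 27 counts and a summed level of 6.03 CP10K, 15.6-fold over alpha. Its 6 column levels, from 3.28 to 16.3 CP10K, varied less than those of Sox2ot or Aff3.

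Small members of the Schwann lists were called on few counts. Lgi4 (7:30758749-30770360, plus strand), a secreted protein that Schwann cells need for myelination, had 21 counts in 5 of the columns, 1.17 CP10K against 0.0643 CP10K in PP (ratio 18.2). Col28a1 (6:7997102-8192617, minus strand), a collagen of peripheral nerve, had 26 counts spread over all 6 columns, 1.45 CP10K against 0.0643 CP10K in PP (ratio 22.5). Matn2, a matrix protein of nerve, had 27 counts and a ratio of 6.41, and Adamtsl1 had 46 counts and a ratio of 15.8. Gfra1, the GDNF co-receptor, had 159 counts of which 111 lay in Med14 S983A FSK, and a ratio of 4.81 over PP. Slc35f1, of the non-myelinating Schwann and glial list, stood at 7.31 CP10K against 2.29 CP10K in beta, short of the fold. Among called genes whose promoter window holds letters bound by SOX factors, Chl1 and Col28a1 are shown because they had a count in every Neurons column. Each is given as 300 bases from 250 before to 50 after the RefSeq start on GRCm38.p6 (6:103510626-103510925, plus strand, and 6:8192568-8192867, minus strand). Capitals mark ACAAAG or ACAATG on either strand, the letters searched.
Chl1: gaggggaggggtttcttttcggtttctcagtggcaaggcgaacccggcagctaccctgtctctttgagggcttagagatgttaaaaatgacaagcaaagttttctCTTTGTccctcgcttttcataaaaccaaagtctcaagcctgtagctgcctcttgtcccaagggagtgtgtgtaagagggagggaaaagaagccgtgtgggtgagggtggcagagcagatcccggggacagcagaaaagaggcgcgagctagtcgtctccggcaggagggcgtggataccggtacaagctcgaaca
Col28a1: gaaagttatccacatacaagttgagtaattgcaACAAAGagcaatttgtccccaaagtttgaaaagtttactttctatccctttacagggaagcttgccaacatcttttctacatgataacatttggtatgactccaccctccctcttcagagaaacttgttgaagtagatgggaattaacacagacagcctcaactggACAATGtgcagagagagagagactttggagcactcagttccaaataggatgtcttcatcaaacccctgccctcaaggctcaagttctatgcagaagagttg
These letters were in 9 of 53 promoter windows of the called genes (17%), 424 of 2060 windows of all genes tested (20.6%) and 28.6% of all windows in the RefSeq table. Windows were matched for 42 of the 65 called genes (64.6%), too few for a comparison, and the match is a description of letters only.

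**Figure D2:**
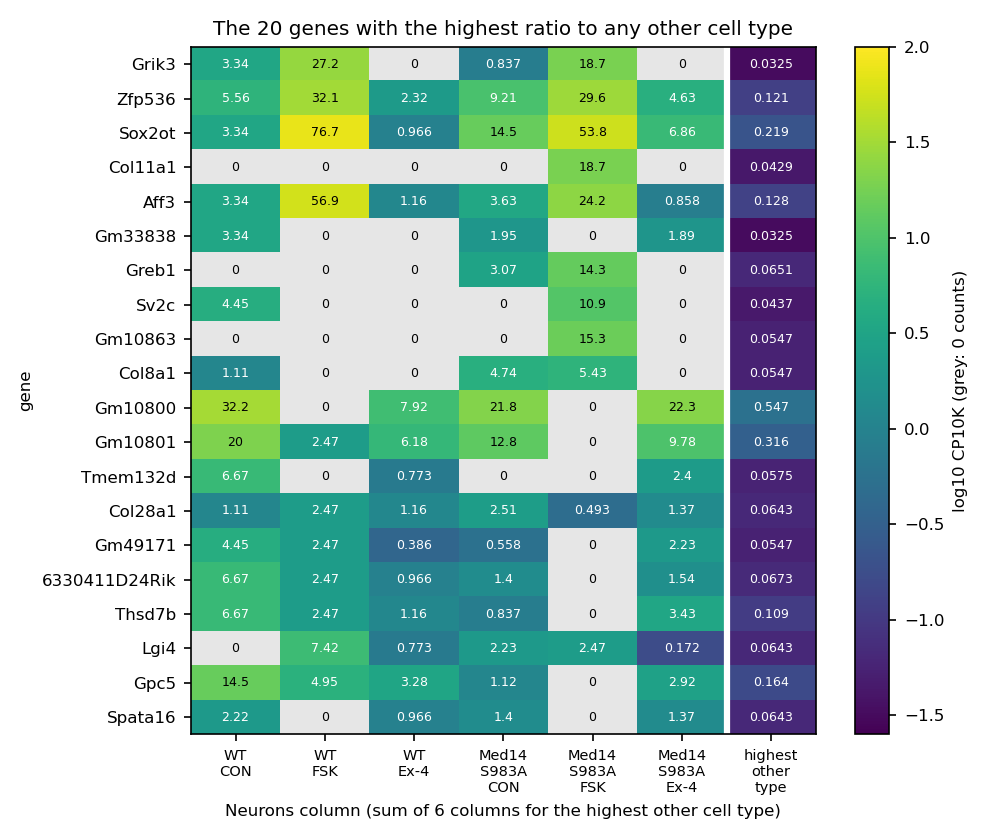
Level of the 20 called genes with the highest ratio in each Neurons column and, in the last column, in the highest other cell type (CP10K printed in each cell, colour on a log10 scale, grey for 0 counts). Sox2ot, Zfp536 and Aff3 have counts in all 6 columns with their highest levels in the FSK columns, while Gm10800 (7.92 to 32.2 CP10K in CON and Ex-4) has 0 counts in both FSK columns.

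The other leading genes fell into genes with counts mainly in 1 or a few columns and unnamed transcripts. All 38 counts of Col11a1, a fibrillar collagen chain, and all 31 counts of the non-coding Gm10863 were in Med14 S983A FSK, and both genes were listed at 0 in every cell type of the other 5 conditions. Greb1 had 29 counts, and Sv2c, a synaptic vesicle protein, had 22 counts in that same column, out of 40 and 26 in all. Col8a1, a short chain collagen of basement membranes, had 17 counts in Med14 S983A CON and 11 in Med14 S983A FSK. Greb1 was listed at 0 in every cell type of 4 conditions, and Sv2c and Col8a1 in 3 each. Gm10800 and Gm10801, which have no gene model in the GRCm39 annotation used here, went the other way. Gm10800 had 29 and 41 counts in the WT columns with CON and Ex-4, 78 and 130 in those of the mutant and 0 in both FSK columns, where 3 counts would be 7.42 and 1.48 CP10K. Its summed level of 15.5 CP10K was 28.4-fold over macrophage nuclei, and that of Gm10801, 8.59 CP10K, was 27.2-fold over endothelial nuclei. Tmem132d, Gm49171, 6330411D24Rik, Thsd7b, Gpc5, a glypican, Gm33838 and Spata16 had 20 to 53 counts each and no count in Med14 S983A FSK. None of them was called lower in the comparison of FSK columns given below. Tmem132d and Spata16 were listed at 0 in every cell type of 1 condition and Gm33838 of 2.

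Called genes were long. Their median length was 564 kb for the 61 of 65 with a gene model, and 36 of these (59%) spanned 500 kb or more. Genes tested and not called had a median of 129 kb, and 173 of 1735 (9.97%) were that long. Long genes give more intronic RNA to nuclear libraries, and the part of length in the calls was not tested. Among the long called genes, chosen for mention after their values were seen, were cell surface genes of synapses and axons. Opcml and Lsamp, adhesion proteins of the IgLON family, had ratios of 17.0 and 6.96, the glutamate receptor Grm7 17.1, the netrin receptor Dcc 12.6, the teneurin Tenm3 5.75 and the contactin Cntn5 12.3. Csmd1, a complement-binding membrane protein of neural tissue, had 394 counts, 22.0 CP10K (19.9 to 24.3), 15-fold over muscle. It had at least 10 counts in every column.

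In a comparison added after the data were seen, the summed FSK columns were set against the other 4 Neurons columns with a 2-fold rule and intervals apart. Of 1825 genes tested, 285 were higher (15.6%) and 81 lower (4.44%) with FSK. Over genes with a count in some cell type of every condition, 264 and 81 of 1797 were higher and lower. The set-apart genes were chosen on sums that include the FSK columns, and their own direction is a description. Of these 65 genes, 22 were higher (33.8%) and 6 lower (9.23%) with FSK. Of the 50 with a count in some cell type of every condition, 13 were higher and 6 lower. Those lower with FSK were Opcml, Grm7, Lrp1b, Gm10718, Gm10800 and Gm10801. With columns rescaled without the ribosomal RNA linked and mitochondrial list, which was low with FSK, 242 were higher and 122 lower of 1817 tested genes.

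Called over the 2 FSK conditions alone were 35 of 170 genes tested, and over the other 4 conditions 48 of 1445. In both sets were 6 genes, 17.1% of the first and 12.5% of the second, namely Sox2ot, Zfp536, Aff3, Csmd1, Edil3 and Chl1. Of the 35, 23 had enough counts to be tested in the other 4 conditions, and of the 48, 6 could be tested with FSK. These 6 genes are therefore the ones that both subsets of conditions, which share no column, set apart from all other types. Edil3 (13:88969142-89471904, plus strand), an integrin-binding matrix protein, had 3, 37, 7, 24, 29 and 12 counts, and its 91.5 CP10K in WT FSK and 14.3 CP10K in mutant FSK exceeded the 1.35 to 6.7 CP10K of the other 4 columns.

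**Figure D3:**
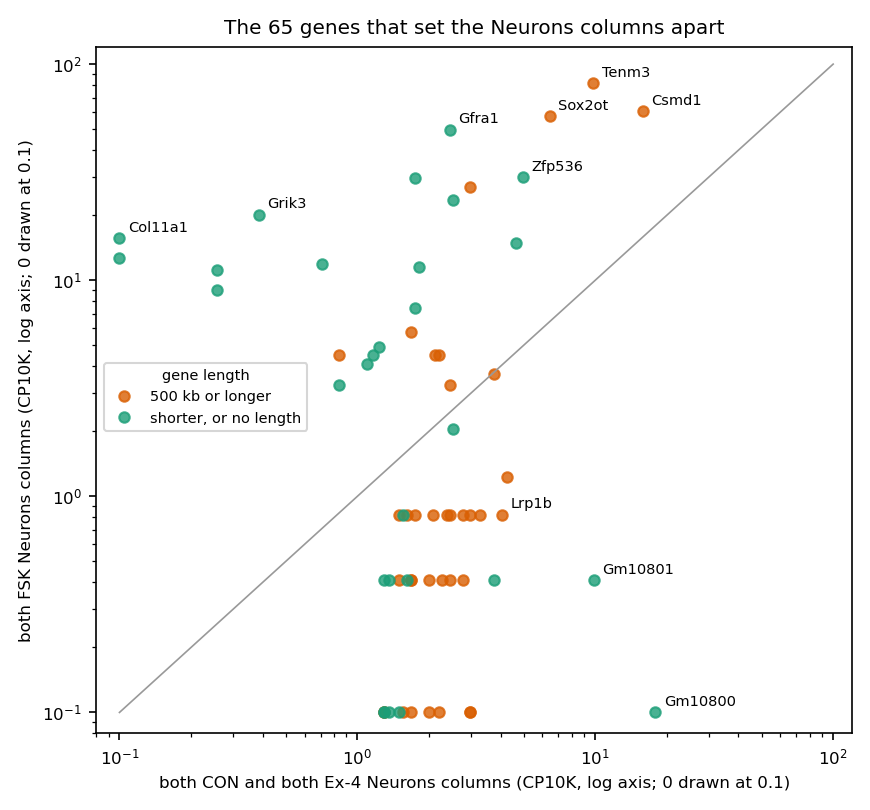
Level of each of the 65 called genes over both FSK Neurons columns (vertical, CP10K) against both CON and both Ex-4 Neurons columns (horizontal, CP10K), log axes, with 0 drawn at 0.1 and the line marking equal levels. Gfra1, Grik3 and Zfp536 lie above the line and Lrp1b and Gm10800 below it, in sums that were themselves used to choose the genes.

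Gene lists also differed between the columns. The non-myelinating Schwann and glial list stood at 18.9, 116 and 8.11 CP10K in WT CON, FSK and Ex-4, and at 19.8, 58.7 and 11.3 CP10K in the mutant. Basal lamina genes stood at 11.1, 104, 5.22, 20.9, 48.8 and 9.43 CP10K in the same order. In both genotypes each list was highest with FSK and lowest with Ex-4. Pan-neuronal genes went from 28.9 CP10K in WT CON to 11.3 CP10K in mutant FSK, with 14.8 in WT FSK, 20.3 in WT Ex-4, 15.4 in untreated mutant nuclei and 21.6 CP10K in those with Ex-4. The list of ribosomal RNA linked and mitochondrial genes stood at 275, 114, 1277, 1621, 237 and 1795 CP10K, so that WT CON and both FSK columns had the lowest values. The 5 genes with the most counts were Rn18s-rs5 (15691 counts), the nuclear RNA Malat1 (8107), Cmss1 (3215), Lars2 (2648) and the gephyrin gene Gphn (2512). Rn18s-rs5, a ribosomal RNA related transcript, was at 876 CP10K against 631 CP10K in alpha, and the mitochondrial ribosomal RNA mt-Rnr2 at 11.9 against 5.47 CP10K in muscle. Summed, this list was at 1320 CP10K in the Neurons columns and 992 CP10K in alpha, the next highest type. Ex-4 columns gave 61.4% of the Neurons counts and 35.3% of those of alpha, and as a mean of 6 columns weighted alike the values were 886 and 897 CP10K.

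**Figure D4:**
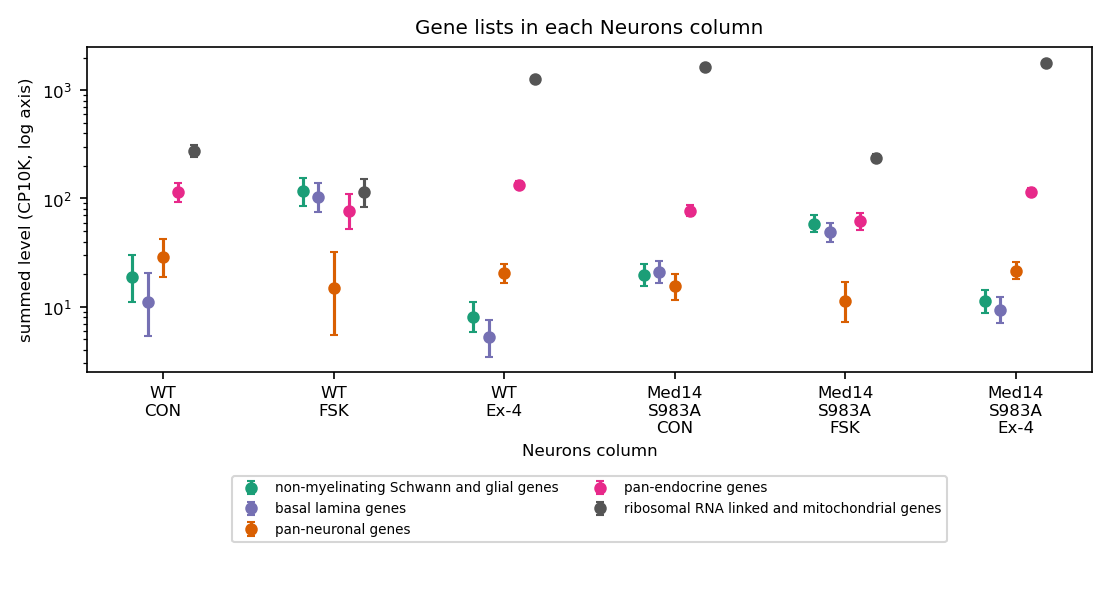
Summed level of 5 gene lists in each Neurons column (CP10K, log axis, bars are 95% counting intervals). Non-myelinating Schwann and basal lamina genes are highest in the WT FSK (116 and 104 CP10K) and Med14 S983A FSK columns (58.7 and 48.8 CP10K), and the ribosomal RNA linked and mitochondrial list is lowest in WT FSK (114 CP10K).

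Against each other type in turn, with 4-fold and intervals apart, the smallest shares of genes lower in the Neurons columns were found against the 4 endocrine types. Against beta, 909 of 12837 genes were higher (7.08%) and 76 lower (0.592%). Lower shares were 1.27% against alpha, 1.87% against delta and 3.34% against PP, followed by 6.56% against endothelial, 6.96% against muscle, 7.82% against ductal and 12.4% against macrophage nuclei. Shares of genes higher in the Neurons columns varied less, at 5.44% against delta, 5.88% against PP, 6.1% against alpha, 6.35% against endothelial, 7.29% against muscle, 7.94% against ductal and 8.9% against macrophage nuclei. The number of genes tested ran from 2569 against ductal to 12837 against beta nuclei, and the depth of the other type sets which genes can be called. Over the same 1825 genes, those with enough counts in the Neurons columns, lower shares were 0.274% against beta, 1.21% against alpha, 1.97% against PP and 2.25% against delta. They were 2.74% against ductal, 3.18% against muscle, 3.62% against macrophage and 3.84% against endothelial nuclei. The 4 endocrine types again had the smallest shares, but the gap to the other types was narrower.

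Endocrine RNA was present in every Neurons column. Genes of the beta, alpha, delta, PP and pan-endocrine lists together held 1.59% of the Neurons counts (1.53 to 1.65), against 3.24% in beta, 2.91% in alpha, 2.28% in delta and 2.21% in PP. In the 4 other non-endocrine types they held 0.4% (ductal) to 0.736% (macrophage) of summed counts, so that the summed Neurons share was 2.16-fold over macrophage nuclei. By column it was 1.8%, 1.41% and 2.04% in WT CON, FSK and Ex-4, and 1.13%, 0.858% and 1.71% in the mutant. Single columns of the other non-endocrine types reached into this range, up to 0.95% in endothelial, 1.23% in macrophage and 1.91% in ductal nuclei. Set against the same condition, the Neurons share was above that of endothelial, macrophage and muscle nuclei in 6 of 6 conditions and above that of ductal nuclei in 5, the exception being WT CON. The interval of mutant FSK, the lowest, overlapped that of summed macrophage nuclei and lay apart from that of WT Ex-4, the highest.

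Most of this endocrine RNA was of beta cell or shared endocrine genes. The beta list held 0.394% of counts (0.366 to 0.424), 42% of its level in beta nuclei, while alpha nuclei had 0.218% and macrophage nuclei 0.155%. By column it was 35.3%, 42.5% and 71.4% of the beta level in WT CON, FSK and Ex-4, and 38.4%, 16.3% and 50.4% in the mutant. Ins1 was at 4.41 CP10K, against 5.36 CP10K in beta and 0.765 CP10K in macrophage nuclei. Ins2 was at 6.53, 12.3 and 2.79 CP10K in the same types. Both insulin genes were thus above the level in macrophage nuclei, a type that should lack them. Glucagon (Gcg) was at 2.9 CP10K, close to the 2.59 CP10K of endothelial nuclei and far from the 59.7 CP10K of alpha, and somatostatin (Sst) had 2 counts. The prohormone convertase Pcsk2 was at 25.6 CP10K against 71.1 CP10K in its highest type, the granule protein gene Chga at 7.81 against 12.5 CP10K and Iapp, a peptide co-secreted with insulin, at 2.96 against 9.67 CP10K. No gene of these lists was called. The source of this RNA was not tested.

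**Figure D5:**
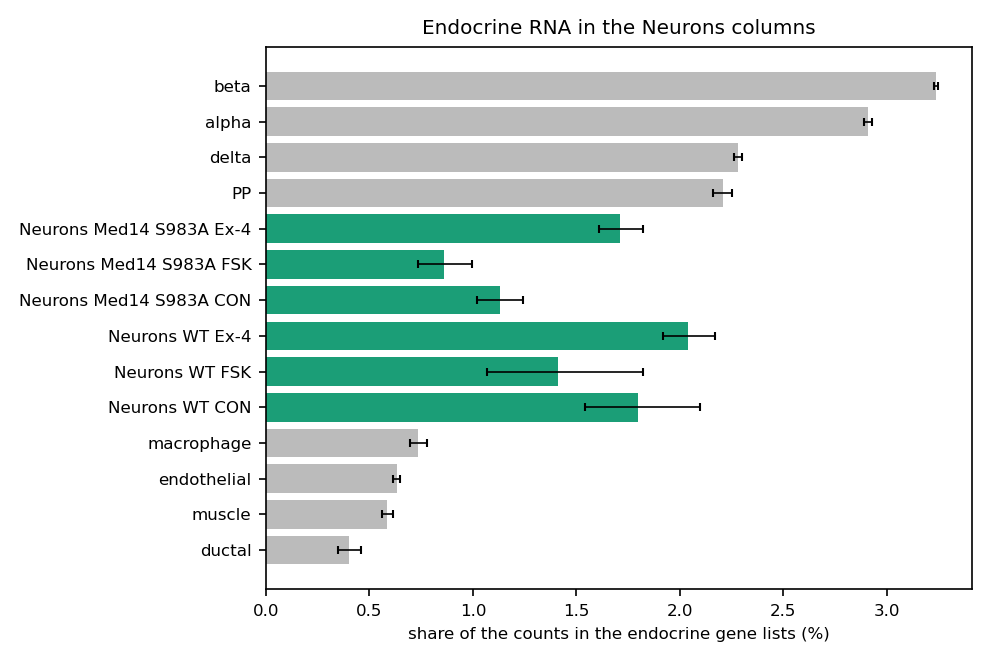
Share of counts in the endocrine gene lists (%) in each Neurons column (green) and in the 8 other cell types (grey, sum of 6 columns), with 95% exact binomial intervals. The Neurons columns run from 0.858% in Med14 S983A FSK to 2.04% in WT Ex-4, between the sums of macrophage (0.736%) and PP nuclei (2.21%), while single columns of macrophage and ductal nuclei, not drawn, reach 1.23% and 1.91%.

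Comparisons of single conditions asked what Ex-4, FSK and the Med14 mutation changed in these nuclei. They used genes with at least 20 counts over both columns, a 2-fold rule and intervals apart. Those of a genotype share their CON column, and the comparison of untreated nuclei uses both CON columns. For Ex-4 in WT, 30 of 373 genes were higher (8.04%) and 30 lower (8.04%), with a median ratio of 1.32 over all genes tested, and 13 and 51 after centring on that median. Genes higher with Ex-4 were led by Nktr, Rbm25, a splicing factor, mt-Rnr2, Gm19951 and Golga4, a golgin, on 1 to 3 counts in WT CON. Nktr had 64 counts with Ex-4 and 1 without, a ratio of 11.1 (1.93 to 446), and in beta nuclei it was 1.55. Lower genes were led by Nxph1, a neurexin ligand, at 7 against 20 counts (ratio 0.0608) with 0.289 in beta, Nlgn1, a neuroligin (0.0695), the splicing factor Rbfox1 (0.12), the GABA-B receptor auxiliary subunit Kctd8 (0.145) and the cadherin Cdh13 (0.147).

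For Ex-4 in Med14 S983A, 18 of 650 genes were higher (2.77%) and 32 lower (4.92%), or 14 and 39 after centring on the median ratio of 1.07. The highest ratios were those of Galnt18, with 21 against 1 counts (12.9, interval 2.08 to 534), Dach1 (12.3, 1.97 to 509), Numa1 and Anks1b (both 7.38, 1.83 to 64.4) and Hnf1aos1 (6.61, 2.4 to 25.3). The lowest were those of Ubash3b and Ppfibp2 (0.154 each), Morrbid (0.168), Slc22a23 (0.171) and Ppfibp1 (0.205). Whether the effect of Ex-4 differs between the genotypes was not tested.

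For FSK in WT only 42 genes could be tested, and 18 were higher (42.9%) and 6 lower (14.3%), or 13 and 11 after centring on the median ratio of 2.12. Adgrl3, a latrophilin, had 43 against 3 counts, a ratio of 31.9 (10.2 to 161) with 0.91 in beta. Col18a1 (27.8, 6.93 to 242), Edil3 (27.4, 8.69 to 139), Sox2ot (23, 7.17 to 117) and Slc35f1 (20.8, 6.41 to 107) followed on 2 or 3 counts in WT CON. Lower with FSK were Fgfr2, with 1 against 26 counts (0.0855, 0.00209 to 0.521, and 0.963 in beta), Lars2 (0.159, 0.0315 to 0.497) and Gphn (0.174). Gm10800 and Nxph1 had 0 counts in WT FSK. With 3 counts in place of the 0 they were 4.35-fold and 3-fold lower, with lower limits of 3.31-fold and 2.22-fold. For FSK in Med14 S983A, 121 of 353 genes were higher (34.3%) and 21 lower (5.95%), or 63 and 52 after centring on 1.77, and 118 and 21 of 350 without genes listed at 0 in every cell type of either condition. The ubiquitin ligase Pdzrn3, with 52 against 1 counts, had a ratio of 91.9 (15.8 to 3698), Lhfp 27.1, Grik3 22.4 (7.1 to 113) and the microtubule-associated kinase Dclk1 20 (8.74 to 56.5). Col11a1 had 38 counts against a CON condition in which it was listed at 0 in every cell type. Lower with FSK were Gm10800 and Gm10801, both at 0 counts. With 3 counts in place of the 0 they were 14.7-fold and 8.68-fold lower, with lower limits of 11.7-fold and 6.78-fold. Also lower were Cmss1 (0.122, with 0.327 in beta), Rn18s-rs5 (0.139, with 0.203 in beta) and the splicing factor Srsf11 (0.168, 0.0191 to 0.688).

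Untreated mutant nuclei against untreated WT nuclei gave 18 of 205 genes higher (8.78%) and 24 lower (11.7%), with a median ratio of 1.19. The split was 16 and 34 after centring, and 21 and 16 with columns rescaled without the ribosomal RNA linked and mitochondrial list. Gm19951 had the highest ratio, 21.8 (7.39 to 107), and 6.97 in beta. Cdk8, a kinase of the Mediator complex, had 450 against 10 counts, a ratio of 11.3 (6.09 to 23.7), and 4.55 in beta. Thus Cdk8 and Gm19951 were higher in the untreated mutant in both cell types. Summed over the 3 treatments the ratios were smaller, 2.05 for Cdk8 (1.84 in beta) and 3.27 for Gm19951 (3.88 in beta). Gm19951 belongs to the ribosomal RNA linked and mitochondrial list, which itself stood at 275 CP10K in WT CON and 1621 CP10K in mutant CON. The synaptic and axonal genes Nxph1 (0.0753), Nlgn1 (0.0837), Nrxn3 (0.0976), Lsamp (0.11) and Robo2 (0.126) had the lowest ratios, on 5 to 8 counts in the mutant column. In WT CON they had 15 to 20 counts. Nxph1 was at 22.2 CP10K in WT CON and at 0 to 1.67 CP10K in every other Neurons column, WT FSK and WT Ex-4 included. Nxph1 and Nlgn1 also had the lowest ratios of WT Ex-4 against the same WT CON column.

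Summed over the 3 treatments, 67 of 1825 genes were higher in Med14 S983A (3.67%) and 39 lower (2.14%), and 33 and 24 of these had the same direction in each of the 3 treatments. The same columns made the calls, so that this agreement was partly fixed in advance and is a description only. Over genes with a count in some cell type of every condition, 53 were higher and 39 lower of 1797. The split turned with the weighting of treatments, since a mean of the 3 columns gave 126 higher and 139 lower, leaving out Ex-4 gave 36 and 56, leaving out FSK 27 and 24, and leaving out CON 73 and 19. FSK columns made up 17.7% of the mutant sum and 6.24% of the WT sum. Of list members and leading genes, Gcg had 50 counts in the mutant (4.37 CP10K, 3.24 to 5.76) and 2 in WT (0.309 CP10K, 0.0374 to 1.11), and its mutant to WT ratio in beta nuclei was 4.21. Gfra1 (4.73), Sox2ot (2.92), Zeb2 (2.39) and Zfp536 (2.27) were higher over the sum, but in 2 of the 3 treatments each, with higher WT levels in FSK for Sox2ot (76.7 against 53.8 CP10K), Zeb2 (19.8 against 16.3 CP10K) and Zfp536 (32.1 against 29.6 CP10K). Lower in all 3 treatments were Lsamp (0.462), the zinc transporter of insulin granules Slc30a8 (0.386) and the oxidoreductase Ero1b (0.443). With FSK this rested on 1 WT and 2 mutant counts for Lsamp and on 1 and 3 for Slc30a8. With Ex-4, Lsamp was at 4.06 CP10K in WT and 3.77 CP10K in the mutant. The GLP-1 receptor gene Glp1r was lower by the sum (0.333), with 33 of 34 WT counts in Ex-4. Ero1b and Glp1r belong to the beta list, which as a whole was lower in the mutant columns. It stood at 38.9, 47 and 59.9 CP10K in WT CON, FSK and Ex-4, and at 27.1, 16.3 and 36.4 CP10K in the mutant. In beta nuclei the ratios of Slc30a8 and Ero1b were 0.609 and 0.716.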

How the data were processed

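Islet nuclei were profiled by the authors with combinatorial barcoding single nucleus RNA-seq (8 sublibraries, each with all 6 conditions), aligned to mm39, filtered on counts, genes and mitochondrial share, integrated and annotated by marker genes. The sources used here do not say if pooling was done on raw or on corrected counts. For 17362 genes in 54 columns the authors deposited values on a natural log scale, ln of 1 plus the counts per 10000 of the column.

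Each total was found as the divisor that turns a column into whole counts, and 100% of values lay within 0.001 of a whole count (largest distance 6.39e-05). Counts were summed over the 6 Neurons columns and over the 6 of each other type. Exact Poisson intervals were used for counts, Clopper-Pearson intervals for shares and conditional binomial intervals for ratios (95%), and the floor for a 0 was 3 counts. With 1 value per condition and cell type, no model was fitted. Ratios against a 0 used the floor. Gene models and lengths came from the GRCm39 annotation, promoters from RefSeq. Computation used scipy 1.17.1, numpy 2.4.6 and pandas 2.3.3 in Python 3.11.15, with figures by matplotlib 3.10.9. The calls were also run on simulated counts with counting error only, which do not cover variation between pools.

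Genes named are Sox10 and Cadm2, list members with at least 20 counts, defining markers at 0, the 20 called genes with the highest ratio, the 5 with the most counts, and the 5 with the largest ratio in each direction of each condition comparison. Chosen after seeing their values were Erbb3, Opcml, Grm7, Dcc, Cntn5, Tenm3, Edil3, Chl1, the genes lower with FSK among those called and the genes just inside and outside the fold. The members and the 21 lists (235 of 336 genes with a row) were chosen with earlier results of these data known. Alternatives changed the fold, the minimum counts, the scaling, the weighting, the comparator and the conditions included.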

Additional observations from a re-analysis of the deposited data

How the results depend on the processing

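Of 75 alternatives to the values reported, 45 left a count or share within its limits and 30 moved it. The 65 set-apart genes became 41 at 8-fold, 111 with a minimum of 10 counts, 18 with 50, 214 against the pooled sum of the other types and 35 with the FSK conditions alone. Leaving out each condition gave 41 to 60, the lowest without Med14 S983A Ex-4, which falls by more than 1.5 times. The 5923 calls against single other types became 11089 at 2-fold and 3309 with a minimum of 50. The endocrine share of 1.59% became 0.171% with hormone genes alone, 1.42% without them, 1.83% with rescaled columns and 1.49% as a mean of columns, and 1.41% to 1.71% when each condition was left out. For WT Ex-4, 4-fold gave 38 genes, a minimum of 10 gave 111 and of 50 gave 27. For WT FSK, a minimum of 10 gave 51 and of 50 gave 2. For untreated mutant against WT, the interval of the ratio gave 67, 4-fold 24, a minimum of 10 gave 80 and of 50 gave 15. For mutant Ex-4, the interval of the ratio gave 107, 4-fold 17 and a minimum of 50 gave 17, and for mutant FSK a minimum of 50 gave 63. The genotype difference became 265 as a mean of columns and 51 to 92 when each treatment was left out. The majority of calls changed side in some settings. WT Ex-4, with 30 higher and 30 lower, had 30 and 81 at a minimum of 10 counts and 23 and 4 at 50. WT FSK had 0 and 2 at 50. Untreated mutant against WT, with 18 and 24, had 21 and 16 with rescaled columns and 13 and 2 at 50. The genotype difference, with 67 and 39, had 126 and 139 as a mean of columns and 36 and 56 without Ex-4. The cause was not tested. A floor in place of a 0 in all other types applied to no gene. No paired analysis was possible because the columns are pooled and carry no replicate numbers. In the smallest column a single count is 2.47 CP10K, which limits every value of WT FSK.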
